A study of Homo sapiens with 18 samples.

Results

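The beta globin cluster on human chromosome 11 holds 5 protein-coding genes, HBB, HBD, HBG1, HBG2 and HBE1. They are 5 of the 19974 protein-coding genes of chromosomes 1 to 22 and X, and they were chosen by name, after an earlier pass over the same libraries had shown H3K9me3 over HBD and HBG1 in double knockout cells. The H3K9me3 values of these genes are therefore a description and carry no test. The genes span 1589 to 1646 bp each and lie between positions 5225464 and 5269945 of chromosome 11 (hg38), a stretch of 44.5 kb called the gene span here. Domain edges fall on an 800 bp grid, so a gene of this size covers only a few grid steps. Domains were therefore followed over the gene span and 100 kb on either side, from 5125464 to 5369945, a window of 244 kb.

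The libraries are ChIP-seq data (immunoprecipitated chromatin, sequenced) from U937 cells, an established human cell line of the monocytic lineage. DKO cells carry knockouts of SUV39H1 and SUV39H2, which encode a pair of related H3K9 methyltransferases, SKO cells carry a knockout of SUV39H1 alone, and sgControl cells carry a control guide, per the labels and the series design. Each genotype has 2 libraries for H3K9me3, which marks heterochromatin, and 2 for H3K27me3, which Polycomb complexes deposit; a further H3K9 methyltransferase, SETDB1, has 2 libraries from unmodified (WT) U937 cells. The 4 input samples had no file and were not analysed here, and the labels do not say whether a knockout line was 1 clone or a pool, or whether replicates were separate cultures. Reads inside domains numbered 16.5 to 23.6 M per H3K9me3 library and 47.9 to 70.7 M per H3K27me3 library (M, 10 to the power of 6 reads). The domain lists measure no expression and do not check the knockouts. On the myeloid side, all 15 myeloid marker genes examined, among them SPI1, CEBPA, LYZ and MPO, had 0% of the gene body inside H3K27me3 domains in every library. For H3K9me3, 14 of the 15 were at 0% in both sgControl libraries, while ITGAM was covered over 41.8% to 67.0% in all 6 libraries. A value of 0% does not mark the lineage, as 26 of 37 erythroid genes also had 0% H3K27me3 in both sgControl libraries.

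Beta globins pair with alpha globins and haem to form haemoglobin in red blood cells. The genes are switched in development in the order in which they lie along the chromosome: HBE1 is the embryonic gene, HBG1 and HBG2 are the fetal gamma globin genes, and HBD and HBB encode the minor and the major adult chain. A locus control region beyond HBE1 drives them in erythroid cells, and clusters of olfactory receptor genes surround the locus. U937 is of the monocytic lineage, where globins are not part of the normal programme.

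**Figure D1:**
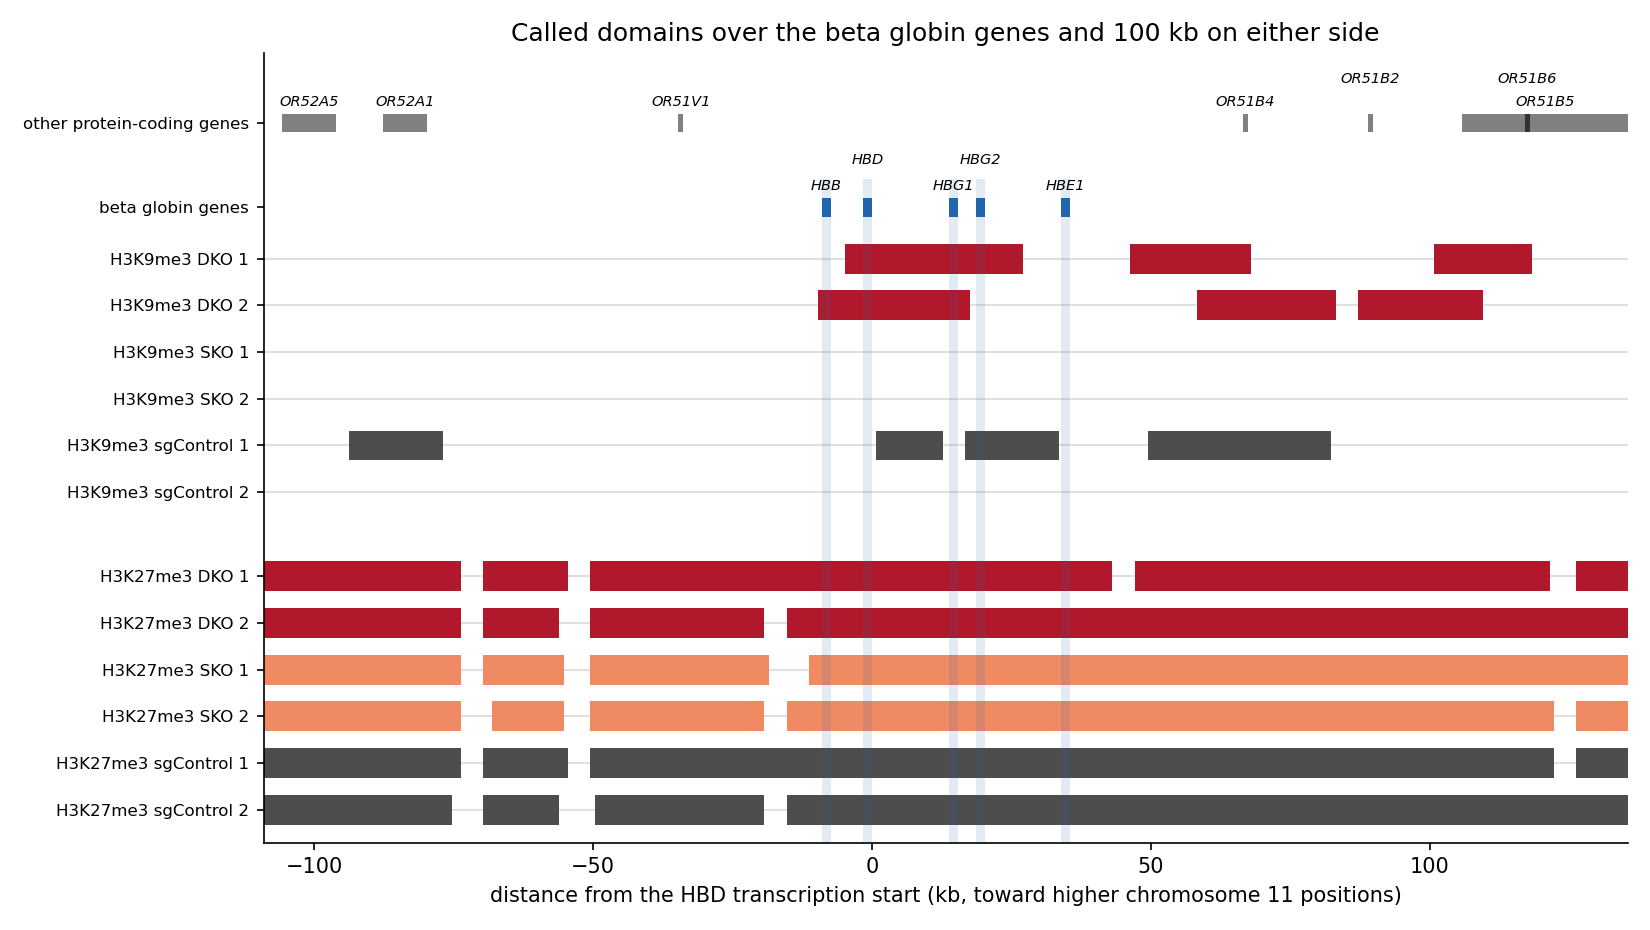
Map of called domains (bars) over the beta globin window, 1 line per library, with distance from the HBD transcription start in kb on the x axis; blue bands mark the 5 globin genes and grey boxes the other protein-coding genes. H3K27me3 domains cover the globin genes in all 6 libraries, while H3K9me3 domains lie there in both DKO libraries and in sgControl replicate 1, and in none of the SKO libraries.

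The whole gene span was inside an H3K27me3 domain in every library, with and without the SUV39H genes. HBE1, HBG1, HBG2, HBD and HBB were each covered over 100% of the gene body in both DKO, both SKO and both sgControl libraries. A single domain held all 5 genes in each library. In DKO this domain spanned 93.6 kb in replicate 1 and 193 kb in replicate 2. In SKO it spanned 150 kb and 138 kb, and in sgControl 173 kb and 194 kb. Full coverage in all 6 libraries was found for 1114 of the 19974 protein-coding genes, or 5.58%. That share is over genes of all lengths, and short genes reach full coverage more readily.

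The density of H3K27me3 reads in the domain over the globin genes was close to the average of its library. In DKO it held 50.0 and 37.9 reads per kb, which is 0.885 and 0.949 times the mean over all domains of those libraries. In SKO the values were 58.3 and 49.3 reads per kb, or 0.997 and 0.988 times the mean. In sgControl they were 42.8 and 41.5 reads per kb, or 0.899 and 0.908 times the mean. Relative density was highest in the SKO libraries, and DKO and sgControl overlapped; the domains differ in extent, so these are averages over different stretches. On chromosome 11 as a whole, over bins marked in all 6 H3K27me3 libraries, the density relative to the other chromosomes was 0.851 in both DKO libraries, 0.832 in both SKO libraries and 0.853 to 0.854 in sgControl.

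Over the 244 kb window, H3K27me3 domains covered 228 and 231 kb in DKO, 228 and 226 kb in SKO, and 232 and 228 kb in sgControl. The 3 genotypes overlapped. The slope over the number of SUV39H genes targeted was -0.60 kb per gene (p = 0.689, exact two-sided permutation test over 90 assignments), within the spread between replicates. The smallest p this design allows is 0.0222. Without sgControl replicate 1 the slope turned to 0.63 kb per gene (p = 0.733, exact permutation test). With all lists at equal covered length, the window held 203 and 217 kb in DKO, 214 and 217 kb in SKO, and 232 and 228 kb in sgControl. Both knockouts then lay below sgControl, with a slope of -10.1 kb per gene (p = 0.0667, exact permutation test). This setting leaves out the lowest scoring domains. It kept 100% and 96.2% of the domains in sgControl, 45.9% and 51.8% in DKO, and 47.4% and 50.0% in SKO. By construction coverage could fall mainly in the knockouts, so nothing is read from this slope.

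None of the 5 globin genes met the rule for a gained or lost H3K27me3 gene in any comparison. Under that rule the libraries of the genotypes do not overlap and the nearest pair differs by at least 25 percentage points. Each of the 5 was at 100% in every library, so a gain could not be called and nothing is read from the 0 gains. Among all genes 3.82% were gained and 3% lost in DKO over sgControl, 3.37% gained and 3.15% lost in SKO over sgControl, and 0.726% gained and 0.365% lost in DKO over SKO. Of the 24 bins of 10 kb in the window, 0 were gained or lost in any comparison, where a bin is called when at least 50% of it is inside domains in both libraries of one genotype and in neither of the other. Over all bins 7.76% were gained and 2.52% lost in DKO over sgControl, 7.36% and 2.39% in SKO over sgControl, and 0.843% and 0.743% in DKO over SKO. All 24 bins of the window were at least 50% inside domains in both sgControl libraries and in SKO replicate 1. No bin could therefore be called gained.

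Short gaps interrupted the mark at like places in all genotypes. A gap of 4.0 to 5.6 kb that began near 5160801 and a gap of 4.0 to 6.4 kb that ended near 5184000, between the olfactory receptor genes OR52A1 and OR51V1, were present in all 6 libraries. The gap nearest to HBB ended 6.26 kb below the gene in DKO replicate 2, SKO replicate 2 and sgControl replicate 2, and 2.26 kb below it in SKO replicate 1. In DKO replicate 1 and sgControl replicate 1 the domain ran through that place. Of the 6 libraries, only DKO replicate 1 had a gap within 25 kb beyond HBE1, on the side of the locus control region; it spanned 4.0 kb from 5277601 to 5281600 and started 7.66 kb beyond the gene. Farther out, a gap that ended at 5360800 was present in DKO replicate 1, SKO replicate 2 and sgControl replicate 1. The smallest gap between domains in the H3K9me3 and H3K27me3 lists is 4000 bp, so the 4.0 kb gaps are at the limit of what the lists can show.

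H3K9me3 over the same genes was patchy and differed between replicates. HBE1, the embryonic gene, was covered over 0% of its body in every library. HBG2 was covered over 100% in DKO replicate 1 and 0% in DKO replicate 2, 0% in both SKO libraries, and 100% in sgControl replicate 1 and 0% in sgControl replicate 2. HBG1 was covered over 100% in both DKO libraries and over 0% in both SKO and both sgControl libraries. The fetal pair thus differed from each other, although HBG1 and HBG2 are near-identical copies, so reads from them may not be told apart; no source used here says how reads with several matches were handled.

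Among the adult genes, HBD was covered over 100% in both DKO libraries and 0% in the SKO and sgControl libraries. HBB was covered over 0% in DKO replicate 1 and 100% in DKO replicate 2, and over 0% in SKO and sgControl. Between the fetal and adult genes lie HBBP1, a transcribed pseudogene, and BGLT3, a long non-coding RNA gene. Both were covered over 100% in the DKO libraries and in sgControl replicate 1, and over 0% in SKO and in sgControl replicate 2.

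**Figure D2:**
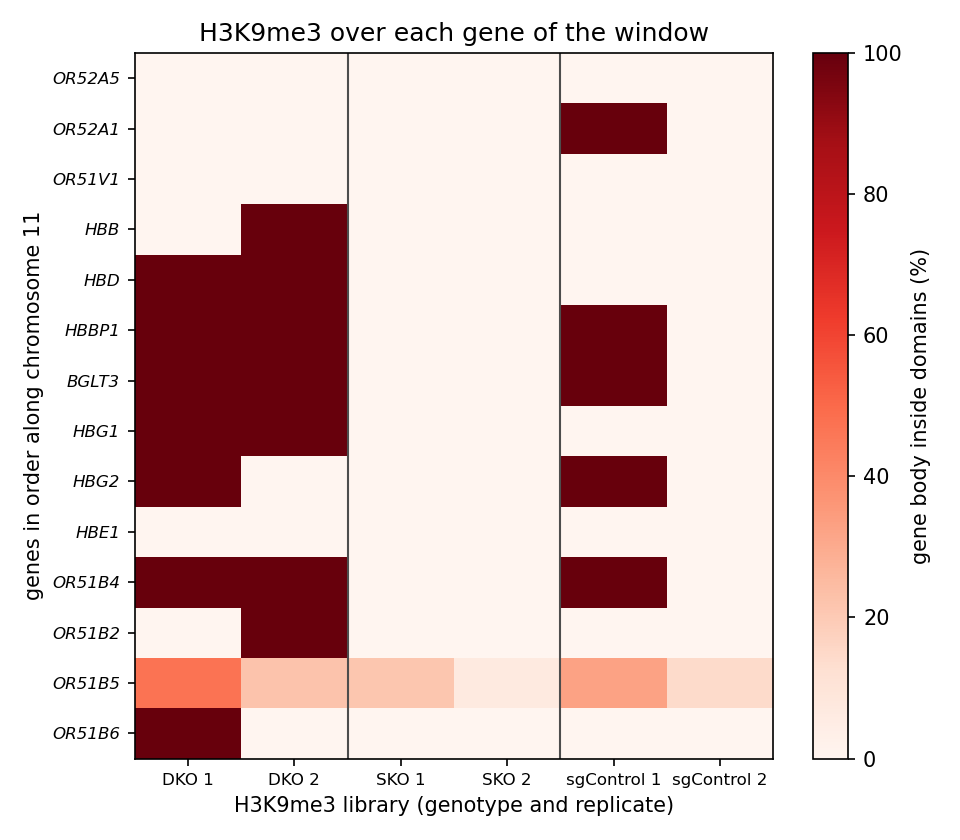
Heat map of the percentage of each gene body inside H3K9me3 domains (colour), with protein-coding genes, HBBP1 and BGLT3 of the window in rows, in chromosome order, and the 6 H3K9me3 libraries in columns. HBD and HBG1 are at 100% in both DKO libraries and at 0% in the other 4, HBG2 is at 100% in DKO replicate 1 and sgControl replicate 1, and the SKO columns are at 0% for every gene except OR51B5, which runs beyond the window.

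HBD and HBG1 met the rule for a gained H3K9me3 gene in DKO over sgControl, as 3.84% of all genes did, and in DKO over SKO, as 1.46% of all genes did. Among the 1010 genes no longer than 1646 bp, 3.17% were gained in DKO over sgControl and 3.56% in DKO over SKO. None of the 5 genes was called lost in these comparisons (4.23% and 1.34% of all genes). In SKO over sgControl 0 of 5 were gained or lost, against 4.11% and 4.5% of all genes. With all 5 at 0% in both SKO libraries and in sgControl replicate 2, a loss could not be called in any comparison of all libraries. With the upper 50% of domains by score neither gain remained. Without sgControl replicate 2, HBG2 was called lost in SKO over sgControl. Without DKO replicate 1, HBB was also called gained over both other genotypes, and without DKO replicate 2, HBG2 was also called gained over SKO. Both gains were the pattern for which the cluster was chosen. The 2 genes lie in 1 domain in each DKO library, so they are 1 event and not 2. Whole-body coverage in both DKO libraries with 0% in the other 4 H3K9me3 libraries was found for 14 of the 19974 genes of all lengths, HBD and HBG1 among them.

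In 1 of the 2 sgControl libraries, domains ended a short distance from HBD and HBG1. The sgControl replicate 1 library had a domain of 12 kb from 5235201 to 5247200, which began 717 bp above HBD and ended 1068 bp below HBG1. A further domain of 16.8 kb from 5251201 to 5268000 began 1343 bp above HBG1, covered HBG2 and ended 344 bp below HBE1. HBG1 therefore lay in a gap of 4000 bp, the shortest that the lists show, and HBD lay less than 1 grid step of 800 bp outside a domain. In sgControl replicate 2 no domain was called in the window. In DKO replicate 1 the domain ran for 32 kb from 5229601 to 5261600 and began 2529 bp above HBB. In DKO replicate 2 it ran for 27.2 kb from 5224801 to 5252000 and ended 1187 bp below HBG2.

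HBD matched an entry of the RefSeq promoter table (GRCh38.p14), and HBB, HBG1, HBG2 and HBE1 did not. The HBD promoter is shown because it is a start site with the H3K9me3 difference between DKO and the other genotypes. It was 100% inside H3K9me3 domains in both DKO libraries and 0% in both SKO and both sgControl libraries, and 100% inside H3K27me3 domains in all 6 libraries. The 250 bases before the transcription start, chr11:5234484-5234733 on the minus strand, read 5′ to 3′ as follows, with capitals for the motifs found:
HBD: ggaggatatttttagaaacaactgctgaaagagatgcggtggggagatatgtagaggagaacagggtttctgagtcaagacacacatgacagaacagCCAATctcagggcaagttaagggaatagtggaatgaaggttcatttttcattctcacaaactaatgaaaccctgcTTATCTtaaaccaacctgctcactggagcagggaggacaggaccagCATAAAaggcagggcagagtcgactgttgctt

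Globin promoters are known for a TATA-like box, a CCAAT box, a CACCC box bound by the erythroid factor KLF1, and binding sites of GATA factors. Each motif named below was searched on both strands of this stretch. The letters CCAAT occurred 1 time, beginning 153 bases before the start, a match of letters that is not taken for the CCAAT box, and are found in 32% of 35116 promoters of the same length. The letters CATAAA, searched for the TATA-like box, began 32 bases before the start, and 9.64% of promoters hold it. The GATA motif, searched as AGATAA, occurred on the opposite strand, 78 bases before the start, and is in 9.17% of promoters. The letters CACCC, present in 54.7% of promoters, had 0 matches in these 250 bases. The motifs do not overlap each other.

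Over the gene span, H3K9me3 domains covered 71.9% and 59.7% of the length in the DKO libraries, 0% in both SKO libraries, and 64.7% and 0% in the sgControl libraries. The DKO range lies above SKO, and the 2 sgControl libraries lie on either side of DKO replicate 2. Their spread, 32.4% ± 45.8 (SD, n = 2), is larger than the distance to the DKO mean of 65.8% ± 8.68 (SD, n = 2). The order DKO, sgControl, SKO therefore separates DKO from SKO only, by non-overlap of 2 libraries against 2. The DKO replicates shared 22.4 kb of the 36.1 kb that either covered (Jaccard index 0.620), and the sgControl replicates shared 0 of 28.8 kb.

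Over the whole window, H3K9me3 covered 71.2 and 74.4 kb in DKO, 0 and 0 kb in SKO, and 78.4 and 0 kb in sgControl. The mean difference was 33.6 kb for DKO minus sgControl, 72.8 kb for DKO minus SKO and -39.2 kb for SKO minus sgControl. Without sgControl replicate 2, DKO minus sgControl turned to -5.6 kb and SKO minus sgControl to -78.4 kb, and without sgControl replicate 1 they were 72.8 and 0 kb, as they were with all lists at equal covered length. By construction, equal covered length left out H3K9me3 domains mainly from the sgControl lists. The sgControl replicate 1 library alone held more of the mark than either DKO library. Reads inside domains numbered 20.6 and 16.5 M in DKO, 21.0 and 20.2 M in SKO, and 23.6 and 18.0 M in sgControl. Over all domains, reads per kb were 25.9 and 21.0 in DKO, 27.8 and 26.7 in SKO, and 22.6 and 17.7 in sgControl, lowest in sgControl replicate 2, the sgControl library with no domain here. Total reads per library are not in the lists, and the part of depth in the difference was not tested. Genome-wide the control libraries had the largest covered share, with 26.2% and 26.0% in DKO, 24.9% in both SKO libraries, and 34.4% and 33.4% in sgControl. On chromosome 11 the shares were 17.2% and 17.5% in DKO, 13.7% in both SKO libraries, and 18.4% and 17.2% in sgControl.

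By 10 kb bins, 1 of 24 was called gained in DKO over sgControl (2.98% of all bins), the one that starts at 5230001 and holds HBD. DKO over SKO gained 3 of 24 bins (2.18% of all bins), which start at 5230001, 5240001 and 5290001. No bin was called lost in these comparisons, where 8.25% and 1.9% of all bins were. SKO over sgControl had 0 bins in either direction (2.97% gained and 9.16% lost over all bins). Neither SKO library nor sgControl replicate 2 had a domain in the window, so with all libraries in, no bin could be called lost. Leaving out 1 library gave 2 to 4 gained bins in DKO over sgControl without either DKO library or sgControl replicate 1, and 8 and 6 in DKO over SKO without DKO replicate 1 and replicate 2. Without sgControl replicate 2, SKO and DKO over sgControl had 9 and 3 lost bins. These counts describe the measure for which the locus was chosen. H3K27me3 of both libraries of a genotype covered 222 of the 244 kb in DKO and 224 kb in sgControl, so most of any stretch in the window lies inside it. In DKO 70.4 of 71.2 kb and 74.4 of 74.4 kb of H3K9me3 were also inside H3K27me3 domains of both DKO libraries, and in sgControl replicate 1 this held for 78.4 of 78.4 kb, from which nothing is read. The lists cannot show whether both marks sat on the same molecules or in different cells.

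**Figure D3:**
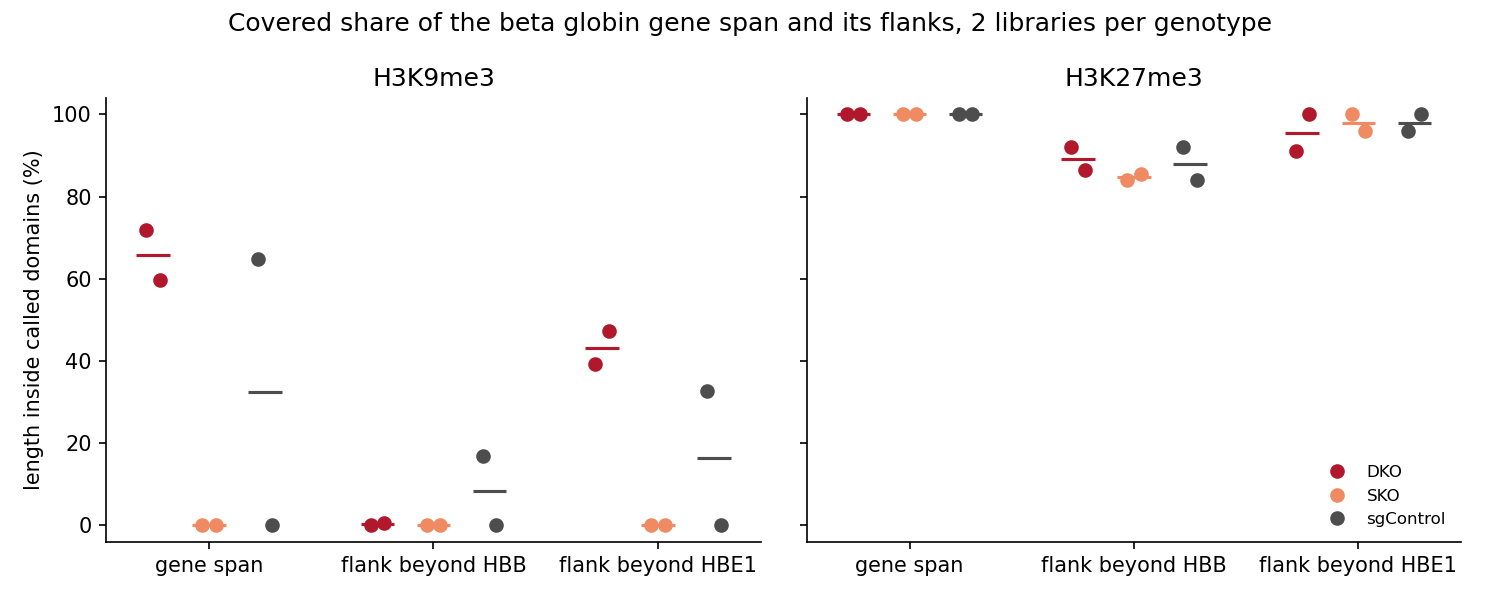
Percentage of the gene span, of the 100 kb beyond HBB and of the 100 kb beyond HBE1 (x axis) inside called domains (y axis), for H3K9me3 at left and H3K27me3 at right; each point is 1 library and the line is the mean of 2. For H3K27me3 every point is at 84% or above, while for H3K9me3 the sgControl libraries lie apart, at 64.7% and 0% of the gene span.

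All H3K9me3 domains of the window ranked in the lower 50% of their own lists. The authors' score places a domain among the others of its library. The domain over the globin genes stood at percentile 33.4 in DKO replicate 1 and 27.3 in DKO replicate 2. In sgControl replicate 1 the domain between HBD and HBG1 stood at percentile 0.936, with a score 1.01 times the lowest in its list, and that over HBG2 at percentile 8.92. The best ranked H3K9me3 domain of the window, at percentile 46.5, lay beyond HBE1 in sgControl replicate 1. The H3K27me3 domains over the genes ranked at percentiles 80.1 and 90.4 in DKO, 88.5 and 87.8 in SKO, and 84.8 and 85.2 in sgControl.

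The read density in these H3K9me3 domains was below the mean of their libraries too. In DKO the domain over the genes held 473 reads in replicate 1 and 359 in replicate 2, which is 14.8 reads per kb (95% Poisson interval 13.5 to 16.2) and 13.2 reads per kb (11.9 to 14.6), or 0.570 and 0.629 times the mean over all domains. In sgControl replicate 1 the domain between HBD and HBG1 held 213 reads, 17.8 per kb (15.4 to 20.3), and the one over HBG2 held 266 reads, 15.8 per kb (14.0 to 17.9), or 0.786 and 0.701 times the mean. These intervals cover counting error only. Read counts outside domains are not in the lists, so the level in the SKO libraries and in sgControl replicate 2 is not known. On chromosome 11, over bins marked in all 6 H3K9me3 libraries, density relative to the other chromosomes was 0.968 and 0.951 in DKO, 0.944 and 0.930 in SKO, and 0.859 and 0.869 in sgControl. Its part in the difference was not tested.

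Weak domains were found again in the other replicate less often than strong ones. Of the weakest 10% of H3K9me3 domains by score, 35.2% and 56.0% were covered over at least 50% of their length by the other replicate in DKO, 40.9% and 55.3% in SKO, and 42.8% and 54.0% in sgControl. Of the strongest 10%, at least 98.8% were covered in each of the 6 libraries. A gene covered over 100% in 1 sgControl library and 0% in the other, as HBG2 was, made up 0.911% of all genes. In DKO 0.921% of all genes were split in this way, among them HBB and HBG2. Short genes reach exactly 0% or 100% more readily than long ones, and no share among genes of globin length is given.

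**Figure D4:**
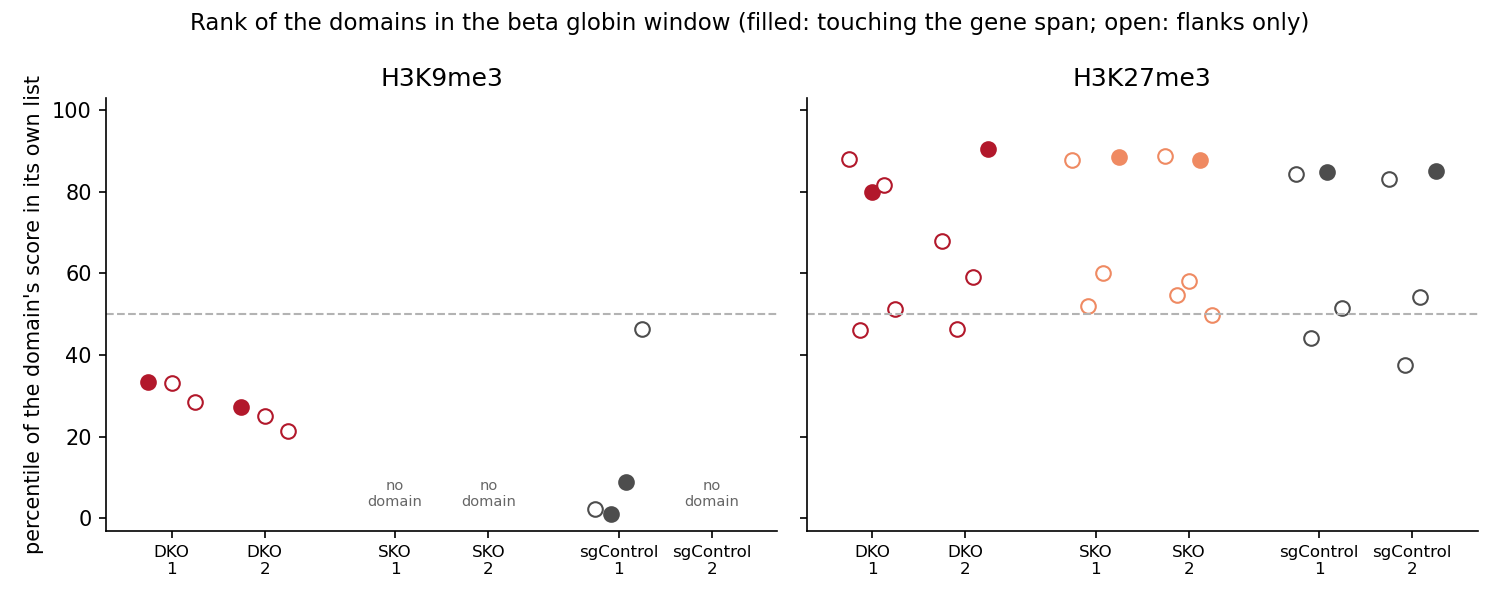
Percentile of each domain's score within its own list (y axis) for the domains of the beta globin window in each library (x axis), with H3K9me3 at left and H3K27me3 at right; filled points touch the gene span, open points lie in the flanks only, and the dashed line marks the 50th percentile. All 10 H3K9me3 domains lie below that line, and the 6 H3K27me3 domains over the genes lie at percentile 80.1 or above.

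The flanks hold 7 further protein-coding genes, all of them olfactory receptors. Each of the 7 was at least 50% inside H3K27me3 domains in all 6 libraries. The lower flank, beyond HBB, holds OR52A5, OR52A1 and OR51V1 and had almost no H3K9me3 in the knockouts, with 0 and 0.663 kb in DKO, 0 kb in both SKO libraries, and 16.8 and 0 kb in sgControl. The 0.663 kb was the edge of the DKO replicate 2 domain over the globin genes. The only domain wholly inside this flank, over OR52A1 in sgControl replicate 1, stood at percentile 2.16 of its list.

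The flank beyond HBE1, with OR51B4, OR51B2, OR51B5 and OR51B6, was covered over 39.2 and 47.2 kb in DKO, 0 kb in both SKO libraries, and 32.8 and 0 kb in sgControl. OR51B4 was at 100% in both DKO libraries, 0% in SKO, and 100% and 0% in sgControl, and was the 1 neighbour called gained, in DKO over SKO (1.46% of all genes). OR51B2 was at 100% in DKO replicate 2 alone, and OR51B6 in DKO replicate 1 alone. None of the 7 was called in DKO or SKO over sgControl for either mark, where 3% to 4.5% of all genes were called in each direction. An H3K9me3 loss could not be called, with each of the 7 at 14.1% or less in sgControl replicate 2. Nor could an H3K27me3 gain, with each at 83.5% or more in both sgControl libraries. These receptors have close relatives elsewhere, so their values are uncertain.

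The 25 kb next to HBE1, where the locus control region lies, showed no steady H3K9me3 in any genotype. It was covered over 14.1 and 2.15 kb in DKO, 0 kb in both SKO libraries, and 10.9 and 0 kb in sgControl. The stretch was 100% inside H3K27me3 domains in SKO and sgControl and in DKO replicate 2, and 84% in DKO replicate 1, which had the 4.0 kb gap.

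SETDB1 was not called near the locus. The WT libraries held 23427 and 24366 peaks, 763 and 793 of them on chromosome 11, and 0 in the window. How often a window of this length holds no peak was not computed, so the 0 is not read as a trait of the locus. The nearest peak on the HBB side lay 767 kb away in replicate 1 and 617 kb in replicate 2, and on the HBE1 side 741 and 742 kb away. A list of called peaks gives no value below its threshold, so binding too weak to be called cannot be told from none.

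The alpha globin genes lay outside called domains. HBZ, HBM, HBA2, HBA1 and HBQ1 on chromosome 16, which encode the embryonic and adult alpha type chains and their relatives, had 0% of the gene body inside domains of either mark in all 12 libraries. The other globin genes MB, CYGB and NGB, which encode myoglobin, cytoglobin and neuroglobin, were likewise at 0% for both marks in all 12. All 8 differences were 0 in all comparisons, as was the median over all genes. The gene bodies of the beta and alpha globin genes thus differed in H3K27me3 in every library. No window around the alpha globin genes was examined, so this does not describe their locus. A value of 0% is common, as the median of the erythroid genes was also 0% for H3K27me3 in each genotype.

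Of 37 further erythroid genes, few were called. The H3K9me3 gains were 1 in DKO over sgControl and 1 in SKO over sgControl (3.84% and 4.11% of all genes), in both cases GYPC, which encodes a glycophorin of the red cell membrane. It was covered over 76.7% ± 11.2 in DKO, 85.6% ± 1.40 in SKO and 28.6% ± 1.40 in sgControl (SD, n = 2 each). XK, which encodes a membrane transporter partner of the Kell antigen, was called lost in DKO over sgControl and over SKO (4.23% and 1.34% of all genes), at 0% in both DKO libraries, 35.4% ± 8.55 in SKO and 39.7% ± 9.77 in sgControl (SD, n = 2 each). With all lists at equal covered length it was not called over sgControl, and the upper 50% of domains alone gave no call over either. For H3K27me3, DKO over sgControl had 3 losses and SKO over sgControl 1, with 0 gains (3% and 3.15% of all genes lost, 3.82% and 3.37% gained). ALAS2, the erythroid enzyme that starts haem synthesis, had 0% in both DKO and both SKO libraries and 90.2% ± 10.3 in sgControl (SD, n = 2).

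TAL1, an erythroid and stem cell transcription factor gene, had 68.0% and 54.8% of its body inside H3K27me3 in DKO, 44.9% and 78.0% in SKO, and 100% in both sgControl libraries, and met the rule for a loss in DKO over sgControl and not in SKO over sgControl; DKO and SKO overlapped. KEL, the Kell antigen gene on chromosome 7, had 15.1% ± 21.3 in DKO, 98.9% ± 1.62 in SKO and 90.2% ± 5.32 in sgControl (SD, n = 2 each), and was also called lost in DKO over SKO (0.365% of all genes). AHSP, the alpha globin chaperone gene, was covered over 100% by H3K9me3 in all 6 libraries. By H3K27me3 it was covered over 88.8% in SKO replicate 2 and 100% in the other libraries. KLF1 was covered over 0% by either mark in all 12. With the upper 50% of domains by score, ALAS2 was not called in either knockout and KEL was not called in DKO over sgControl. With a difference of 50 points, GYPC and XK were not called in DKO, nor TAL1. The median difference of the list was 0 percentage points for each mark and comparison, as over all genes.

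Among 23 regulators of the fetal to adult globin switch, BACH1 and HDAC2 were called gained for H3K9me3 in DKO over sgControl and BACH1 in SKO over sgControl (3.84% and 4.11% of all genes), comparisons that share the sgControl libraries. BACH1, a haem-sensing repressor, was covered over 91.7% ± 2.69 in DKO, 96.2% ± 5.39 in SKO and 46.2% ± 7.19 in sgControl (SD, n = 2 each). HDAC2, a histone deacetylase gene, was covered over 49.8% ± 20.8 in DKO, 33.0% ± 8.90 in SKO and 2.55% ± 1.48 in sgControl (SD, n = 2 each). None of the 23 was called lost for either mark, where 3% to 4.5% of all genes were lost in each comparison with sgControl. In both sgControl libraries 17 of the 23 were at 0% for H3K9me3 and 20 were at 0% for H3K27me3. A loss over sgControl could not be called for those genes, so nothing is read from its absence. LIN28B and NFIA were called gained for H3K27me3 in both DKO and SKO over sgControl (3.82% and 3.37% of all genes). LIN28B, an RNA-binding protein of fetal cells, had 86.0% ± 1.93 in DKO, 81.6% ± 0.387 in SKO and 49.3% ± 1.93 in sgControl, and was not called with all lists at equal covered length (SD, n = 2 each). NFIA, a transcription factor gene of erythroid commitment, had 78.1% ± 0.147 in DKO, 78.4% ± 1.47 in SKO and 5.08% ± 0.440 in sgControl (SD, n = 2 each). BCL11A, the repressor of fetal globin, had 5.80% ± 0.547 of its body inside H3K9me3 in DKO and 0% in SKO and sgControl (SD, n = 2). That difference was too small for a call, and the gene had no H3K27me3. With a difference of 50 points BACH1, HDAC2 and LIN28B were not called, while NFIA was.

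The genes whose pattern was most like that of the globin gene span lay on several chromosomes. Likeness was the mean absolute difference in covered percentage over the 12 libraries of both marks, among 17589 genes of at least 2 kb on other chromosomes, where the median was 66.4 percentage points. The 8 nearest were GALP at 4.31 points, UBE2QL1 at 4.80, PSG8 at 5.89, NSG2 at 6.55, MC5R at 6.93, SERPINA4 at 7.06, TIMD4 at 7.35 and VSIG1 at 7.58. All but VSIG1 were 100% inside H3K27me3 in all 6 H3K27me3 libraries, and VSIG1 was at 96.0% or above. GALP, which encodes a neuropeptide, had 42.7% in both DKO libraries, 0% in both SKO libraries, and 59.1% and 0% in sgControl for H3K9me3, the same split between the control libraries as at the globin genes. PSG8 belongs to a family of close copies, so its value is uncertain. TIMD4 and VSIG1 differed in that both sgControl libraries were at 0%. The 8 genes were picked by these same values, so their likeness follows from the selection and is not a finding.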

How the data were processed

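H3K9me3 and H3K27me3 domains were called per library with epic2, per the file names. The submitters' processing notes name hg38, dm6, SICER, deepTools 3.5.6, FastQC 0.12.1 and Trim Galore 0.6.10; no aligner or read filter was found in the labels or files. The authors deposited 1 read count and 1 score for every domain, per the file headers. Counts are whole numbers, not scaled for depth or for the Drosophila spike-in described in the labels' protocols, so the total amount of a mark cannot be compared. The deposited SETDB1 lists hold peaks per library with a score, a fold enrichment (ratio) and −log10 p and q values per peak, and their positions alone were used. Without input counts or replicated counts per gene, no count model was fitted.

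Covered length, covered percentage of gene bodies (RefSeq GRCh38.p14 positions) and 10 kb bins were computed with Python 3.11.15, numpy 2.4.6, pandas 2.3.3 and scipy 1.17.1, and figures were drawn with matplotlib 3.10.9. The code was tested on simulated domain lists. A gene was called when every library of one genotype lay above every library of the other, with a smallest difference of 25 percentage points or more. The members, lists and rules were chosen with earlier results of these data known. Named are the 5 genes, all protein-coding genes of the window, the alpha globin genes, called genes of the lists and the 8 most like genes; AHSP, KLF1 and BCL11A were added after their values were seen. The p-value measures the spread between these libraries, which may be technical. Alternatives were the upper 50% of domains by score, equal covered length (lowest scoring domains left out), flanks of 50 and 200 kb, 2 kb added to genes, differences of 10 and 50 points, bin shares of 25% and 75%, each library left out, and a replicate block.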

Additional observations from a re-analysis of the deposited data

How the results depend on the processing

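Of 263 values recomputed under other settings, 229 stayed within the tolerance, 33 moved beyond it and 1 trend changed direction. Many of the 229 were counts of 0 called genes or bins that stayed at 0. Some of these could not change, as with H3K27me3 gains of genes already at 100%, so the tally is no measure of stability. The tolerance is 1 SD between replicates for a difference in covered length and a ratio of 1.5 for a count, so a small or widely spread difference can change sign within it. This was so for H3K9me3 DKO minus sgControl, at 33.6 kb and at -5.6 kb without sgControl replicate 2, and for H3K27me3 DKO minus sgControl, at -1.2 kb, and at 0.4 kb without DKO replicate 1 and 0.8 kb without sgControl replicate 1. H3K9me3 SKO minus sgControl, at -39.2 kb, was 0 kb without sgControl replicate 1, with the upper 50% of domains and at equal covered length. With the upper 50% of domains by score no H3K9me3 domain was left in the window, so DKO minus SKO was 0 kb and the genes (0) and bins (0) gained in DKO fell away; for H3K27me3 SKO minus sgControl was 6.63 kb and DKO minus SKO -7.83 kb, with 1 bin gained in SKO over sgControl and 1 lost in DKO over SKO. At equal covered length, H3K27me3 differed by -15.0 kb in SKO minus sgControl, -20.2 kb in DKO minus sgControl and -5.2 kb in DKO minus SKO, with 1 bin lost in SKO and 2 in DKO, the trend was -10.1 kb per gene (p = 0.0667, exact permutation test), and 3 H3K9me3 bins were gained in DKO over sgControl. By construction that setting leaves out lower scoring domains, most of all from the knockout H3K27me3 lists and the sgControl H3K9me3 lists. For the other settings the cause was not tested. With flanks of 50 and 200 kb, H3K9me3 DKO minus SKO was 52.8 and 97.2 kb, and at 200 kb H3K27me3 was -8 kb in SKO minus sgControl and 5.13 kb in DKO minus SKO. A bin share of 25% or 75% gave 2 gained H3K9me3 bins each in DKO over sgControl, and 25% gave 5 in DKO over SKO.

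Leaving out each library in turn, the H3K27me3 trend ranged from -1.66 to 0.63 kb per gene, reversed without sgControl replicate 1, and H3K9me3 DKO minus SKO from 71.2 to 74.4 kb. Globin genes called lost in SKO over sgControl ranged from 0 to 1 (HBG2, without sgControl replicate 2), and bins lost there from 0 to 9. In DKO over sgControl 1 to 4 H3K9me3 bins were gained and 0 to 3 lost, and in DKO over SKO 3 to 8 were gained; for H3K27me3, 0 to 1 bins were lost in SKO over sgControl and 0 to 1 gained in DKO over SKO. HBD and HBG1 were called gained in DKO over sgControl under every alternative run except the upper 50% of domains. Both genes were at 100% in both DKO libraries and 0% in both sgControl libraries. Other difference thresholds and leaving out 1 library therefore could not remove the call, and nothing is read from them. Equal covered length left out H3K9me3 domains mainly from the sgControl lists, so it was a weak check. With 2 kb added to genes the call could have changed, and it stayed. That setting uses the same H3K9me3 domains for which the genes were chosen, so it is no independent support. With the replicate block the trend was -0.6 kb per gene (p = 0.667, exact permutation within replicate numbers). Same-numbered libraries had correlations of -0.01 to 0.05 between their deviations over genes, so no shared deviation was seen. Whether same-numbered libraries were prepared together is not known. Narrow genes on an 800 bp grid and read counts given only inside domains limit what depth can show here.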

Other observations

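Over all protein-coding genes, the globin genes included, those that lay fully inside H3K27me3 domains in all 6 libraries, 1114 in number, were called gained for H3K9me3 in DKO over sgControl in 44 cases (3.95%, against 3.84% of all genes) and in DKO over SKO in 116 cases (10.4%, against 1.46%). Of the 14 genes with H3K9me3 over the whole body in both DKO libraries and 0% in the other 4, 9 lay fully inside H3K27me3 in all 6 H3K27me3 libraries. HBD and HBG1, chosen for this pattern, are counted among the 44, the 116, the 14 and the 9. These shares were noticed after the data were seen and carry no test, and the comparisons with sgControl and with SKO share the DKO libraries. Among the 1010 genes no longer than 1646 bp, 3.17% and 3.56% were gained in these comparisons, and the 1114 genes were not matched for length. Neighbouring genes in 1 domain are counted apart. A link between the marks was not tested. CD33, a myeloid surface receptor gene, was the 1 of 15 myeloid marker genes called, as gained in DKO over sgControl (3.84% of all genes), with H3K9me3 over 58.0% and 69.2% of its body in DKO, 0% and 64% in SKO, and 0% in both sgControl libraries. It was not called with the upper 50% of domains by score.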
